A study of Mus musculus with 4 samples.

Results

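The carriers that move amino acids and small peptides across cell membranes were taken as the genes of 8 solute carrier families, Slc1a, Slc3a, Slc6a, Slc7a, Slc15a, Slc36a, Slc38a and Slc43a, by gene symbol alone. The values analysed here held 129 probe sets for 65 such genes, of 18194 genes that were named by a probe set with 1 symbol. Members of each family were found: 20 in Slc6a, 15 in Slc7a, 9 in Slc38a, 7 in Slc1a, 5 in Slc15a, 4 in Slc36a, 3 in Slc43a and 2 in Slc3a.

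Expression was measured once in each of 4 pools of small intestine RNA. The pools came from WT mice without (WT control) and with treatment (WT + lubiprostone) and from CF mice without (CF control) and with it (CF + lubiprostone), where CF mice are homozygous for the Cftr tm1Unc null mutation and WT mice are their littermates, all C57BL/6 by the labels and C57BL/6J by the methods. Every mouse, the WT controls included, lived on the liquid diet Peptamen, a feed of predigested protein that keeps CF mice from lethal obstruction. The treated mice had been gavaged daily with lubiprostone, a fatty acid derivative used against constipation, at 10 µg/kg in Peptamen for 2 weeks. Equal amounts of RNA from 10, 7, 10 and 8 mice, in the order of the groups above, went into the pools by the deposited description, and the methods give a lower number for the WT control pool. Ages and sexes within the pools are not given in the sources used here. Each pool was hybridized to 1 array, so no value below has a replicate within its group, no test was made, and nothing is known of how far single mice or repeated pools would vary.

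Dietary protein reaches the blood in steps. Brush border peptidases cut it to di- and tripeptides and free amino acids, apical carriers driven by sodium, by protons or by exchange bring these into the enterocyte, and basolateral exchangers and uniporters release them to the blood. Several exchangers are a light chain of the Slc7a family held in the membrane by a heavy chain of the Slc3a family. Other members, such as Slc7a5 and Slc7a1, feed dividing and protein-making cells rather than the body, and some Slc6a carriers move neurotransmitters, taurine or creatine.

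Values are signals, intensities in arbitrary units on a linear scale that the authors scaled to the same trimmed mean on each array. The array medians were 123.8, 122.5, 109.4 and 119.6 and the 75th percentiles 482, 474, 464 and 476, in the order untreated WT, treated WT, untreated CF and treated CF, which all signals below follow. Of the 65 members, 40 (61.5%) had a probe set at or above the median of its array on at least 1 array, against 67.4% of all genes, and 26 (40.0%) had one at or above the 75th percentile, against 40.7%. Of these 40, 34 reached the median on all 4 arrays with some probe set, and 6 were kept through some arrays only. The fold for a gene is the mean log2 ratio over its kept probe sets turned back to a ratio, and a fold against a signal below the array's median was computed against that median and is given as "at least". The signal printed for a gene with several probe sets is their mean, so it is not compared between genes.

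The labels were checked on Cftr and on epithelial genes. Between the control pools Cftr was 5.08-fold lower in CF, and between the treated pools 3.38-fold. All 11 epithelial markers, such as Epcam, were at or above the median on each array, with summed signals of 182555, 195453, 200369 and 202076. Xist, expressed from the inactive X, gave 476, 1587, 1095 and 1716, and the Y-linked Eif2s3y 1242, 829, 884 and 805, so the pools differed in sex markers, and the part of this in the carriers' values was not tested.

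The largest differences among the carriers were between genotypes. In CF control against WT control, 39 members were counted, 17 higher and 22 lower in CF, with a median log2 ratio of -0.20 against -0.02 over all 11806 genes counted. At least 2-fold lower were 5 members, Slc6a20a, Slc7a15, Slc6a19, Slc15a1 and Slc43a2, where 4.84% of all genes were, and at least 3-fold lower were 2 of them, where 1.82% of all genes were. At least 2-fold higher were 3 members, Slc6a14, Slc7a5 and the dim Slc38a3, against a background of 2.8%, and at least 3-fold higher 2, against 1.16%. All 3 had WT control signals below the array's median and were counted through the CF control array alone. Against that median, Slc6a14 was at least 3.25-fold, Slc7a5 at least 3.40-fold and Slc38a3 at least 1.01-fold higher. With each array scaled to the same median, the split of 3 higher and 5 lower became 5 higher and 3 lower: Slc7a1 and Slc1a1 moved past 2-fold, to log2 ratios of 1.11 and 1.04, and Slc15a1 and Slc43a2 moved inside it, to -0.86 and -0.83. On the values as deposited, Slc43a2 and Slc15a1 had only just passed 2-fold, at 2.01 and 2.05-fold lower. Slc7a8 and Slc6a4 fell just short of it, at 1.96 and 1.92-fold lower. Since these are RNAs of the entire small intestine, fewer cells of a type and less RNA per cell cannot be told apart.

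Among the 9 apical uptake carriers above the filter, 5 had a lower and 4 a higher signal in the CF than in the WT control pool. Slc6a20a, the sodium-driven imino acid carrier that takes up proline, gave 8887, 8457, 1212 and 1837. Both CF pools lay far below both WT pools, 7.33-fold without and 4.60-fold with lubiprostone, the lowest ratio of any member counted in either comparison. Slc6a19, the main sodium-driven carrier of neutral amino acids, gave 7807, 9350.0, 3113 and 7423 as the mean of 2 probe sets. Only the CF control pool was low, 2.49-fold below WT control with both probe sets near each other (log2 ratio -1.31 ± 0.06, SD, n = 2 probe sets), whereas the treated CF pool was 1.29-fold below the treated WT pool.

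Slc15a1, the proton-driven peptide carrier, gave 6188, 5648, 3016 and 3424. Both CF pools were below both WT pools, by 2.05-fold in the controls and 1.65-fold in the treated mice. Slc36a1, a proton-driven carrier of small neutral amino acids, gave 1768, 2350.1, 1326 and 2032, with CF 1.33-fold lower in the controls. The lowest of the 4 pools was again CF control, but the 2 CF pools did not both lie below the WT pools. Slc6a6, the taurine carrier, gave 931, 1139, 738 and 1442 over 3 kept probe sets, lowest in CF control and highest in CF + lubiprostone.

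Not all apical carriers were lower in CF. Slc7a9, the light chain of the exchanger for cystine and basic amino acids, gave 12098, 13679.8, 12181 and 11505, and its ratio of CF control to WT control was 1.01. Its 4 pools lay within a narrow range beside those of Slc6a20a. Slc1a1, the carrier of glutamate and aspartate, gave 784, 885, 1316 and 921 and was 1.82-fold higher in the CF than in the WT control pool (log2 ratio 0.87 ± 0.37, SD, n = 3 probe sets). The untreated CF pool stood above the others, and all 3 probe sets had their highest signal there.

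Slc1a5, a neutral amino acid exchanger, gave 317, 377, 419 and 420.2, and its 2 probe sets had opposite signs between the control pools. Slc6a14, a carrier of neutral and basic amino acids known best from the colon and the lung, gave 57.6, 108, 405 and 376 and did not reach the 75th percentile of any array. Both CF pools were above both WT pools, at least 3.25-fold in the controls and at least 2.995-fold in the treated mice, with the WT control pool below the array's median in both probe sets. Slc6a20b was below the filter on every array.

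**Figure D1:**
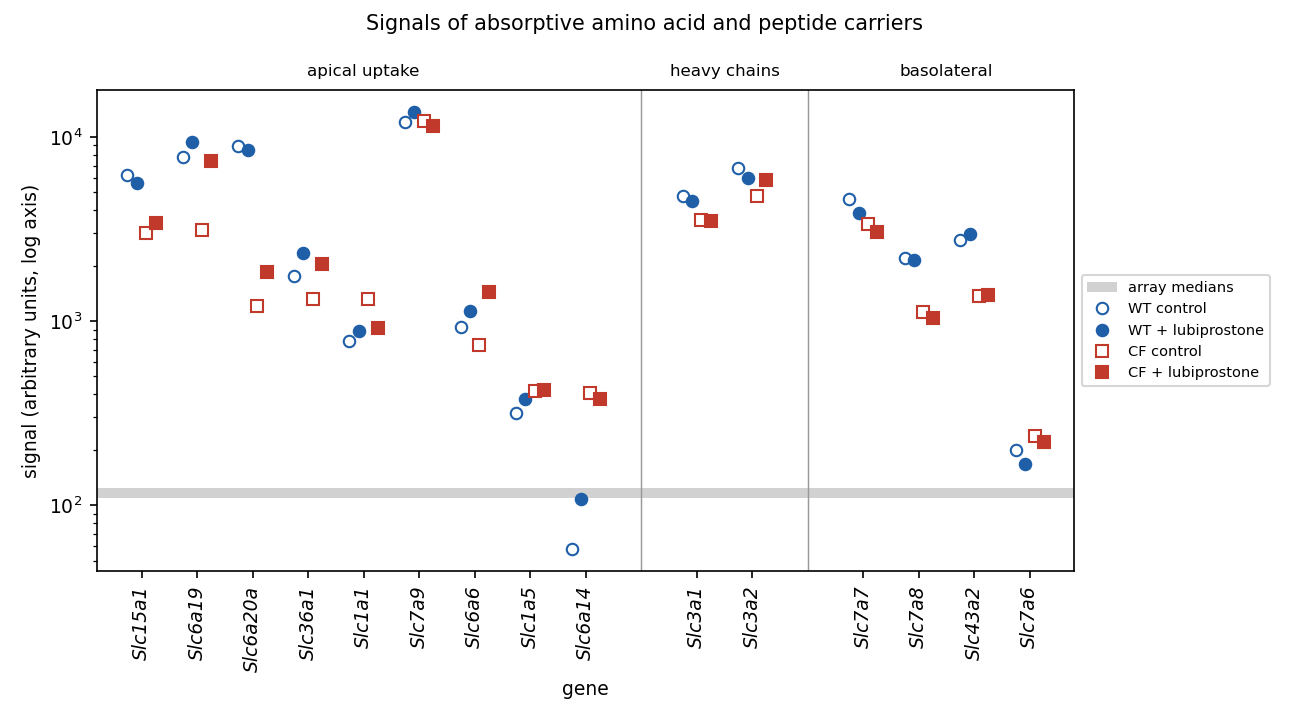
Signal (arbitrary units, log axis) of the kept carriers of apical uptake, of the 2 heavy chains and of the basolateral carriers in the 4 pools, 1 array each. Circles are WT and squares CF pools, open without and filled with lubiprostone, and the grey band spans the 4 array medians. The CF squares of Slc6a20a sit at 1212 and 1837 and its WT circles at 8887 and 8457, while the 4 points of Slc7a9 nearly coincide.

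Both heavy chains were lower in CF control, by less than 2-fold. Slc3a1, the partner of Slc7a9, gave 4774, 4467, 3521 and 3503, a 1.36-fold lower value in the CF than in the WT control pool. Slc3a2, the partner of the basolateral light chains and of Slc7a5, gave 6796, 5962, 4778 and 5858 and was 1.42-fold lower. In the treated pools the CF value was 1.28-fold lower for Slc3a1 and 1.02-fold lower for Slc3a2. Slc3a1 thus stayed lower in CF with treatment, and the treated pools of Slc3a2 were nearly equal.

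Of 4 basolateral carriers above the filter, 3 were lower in CF in both genotype comparisons and Slc7a6 was higher in both. Slc43a2, a uniporter of branched-chain amino acids and phenylalanine, gave 2756, 2972, 1366 and 1392. Its 3 probe sets were all lower in CF, with log2 ratios of -1.01 ± 0.06 in the controls and -1.07 ± 0.23 in the treated pools (SD, n = 3 probe sets). Slc7a8, the light chain of a neutral amino acid exchanger, gave 2194, 2144, 1120.0 and 1036, which is 1.96-fold lower in CF without and 2.07-fold lower with lubiprostone. For both genes the 2 CF pools were alike and lay below the 2 WT pools.

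Slc7a7, the light chain that releases basic amino acids in exchange for neutral ones, gave 4618, 3868, 3351 and 3042 and the CF pool was 1.38-fold lower without and 1.29-fold lower with lubiprostone. Slc7a6, its relative in most other tissues, was dimmer, at 199.6, 168, 238 and 219. It was 1.19 and 1.31-fold higher in CF. Slc43a1 was below the filter on every array.

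Markers of the absorbing cells were also lower in CF. Between the control pools all 11 kept villus enterocyte markers were lower in CF (median log2 ratio -0.39). Of these, 4 were at least 2-fold lower, where 4.84% of all genes were. Their list had summed signals of 262801, 284004, 193795 and 230786. Of 6 ileum markers 5 were lower in CF control (median log2 ratio -0.71), with summed signals of 32992, 36651, 13755 and 16407. Between the treated pools 3 were higher and 3 lower in CF (median log2 ratio -0.37), although the summed signal was lower in CF. Of 7 markers of the proximal intestine 4 were higher and 3 lower in CF control (median log2 ratio 0.08). Their summed signals were 120725, 127371, 90627 and 104483, also lowest in CF control. In the epithelial list, 8 of 11 were higher and 3 lower in CF control. The villus list holds lactase (Lct), which was 7.50-fold lower, and Fabp1, which was 1.08-fold lower. These 11 were at or above the median on each array, sucrase-isomaltase was not read, and the part of these lists in the carriers' values was not tested.

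Carriers that supply cells with amino acids were taken next. Of 8 above the filter, 6 were higher and 2 lower in CF between the control pools (median log2 ratio 0.62). There 48.2% of all genes were higher. Of 7 counted in the treated pools 6 were higher and 1 lower (median 0.54), where 50.3% of all genes were higher. Both medians use signals as deposited, and Slc7a5 and Slc38a3 were counted in the controls through the CF control array alone. With lower signals raised to the array's median, control log2 ratios were 1.76 for Slc7a5, 0.58 for Slc6a9, 0.42 for Slc1a4 and 0.01 for Slc38a3. These were lower than as deposited, while Slc38a2 rose from -0.10 to -0.08. The same step took Slc1a4 from 0.72 to 0.40 in the treated pools, so both medians are lower with it. No sign changed. Of the 6 higher between the control pools, Slc38a1 and Slc38a3 differed little (1.09-fold and, with signals below the median set to it, 1.01-fold). Slc7a5, the light chain of the exchanger that brings leucine and other large neutral amino acids into growing cells, gave 109.5, 164, 421 and 559.5. The WT control signal was below the array's median, so the CF control pool was at least 3.40-fold higher, and the treated CF pool was 3.42-fold above the treated WT pool. Both CF pools were well above both WT pools, on 1 probe set.

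Slc7a1, a uniporter of arginine and lysine, gave 1292, 1603, 2239.9 and 2818 over 2 kept probe sets. CF was 1.90-fold higher in the controls (log2 ratio 0.93 ± 0.50, SD, n = 2 probe sets) and 1.81-fold higher in the treated pools. A further probe set of Slc7a1 with signals of 93.8, 43.4, 8.82 and 56.6 was below the filter, and counting it turned the log2 ratio of the controls to -0.52. Slc6a9, a glycine carrier, gave 276, 380.3, 382 and 543, 1.45-fold higher in the treated CF than in the treated WT pool, and was lowest in WT control.

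Slc1a4, an exchanger of alanine, serine and cysteine, gave 149, 199.6, 221 and 299.9 over 3 probe sets, of which some lay below the median, and was higher in CF by at least 1.34-fold in the controls and by at least 1.32-fold with lubiprostone. The sodium-driven glutamine carriers differed less. Slc38a1 gave 1342, 1369.7, 1449 and 1429 and Slc38a2 1395, 1373, 1461 and 1807, and neither differed by 1.5-fold in any comparison. Slc38a3, listed above at 2-fold, had signals of only 55.1, 96.9, 125 and 115, near or below the medians, and was at least 1.01-fold higher when the WT control signal was set to the median. Slc7a2 had 1 kept probe set of 4, at 137, 169, 116 and 134, and was slightly lower in CF.

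Genes of the response to amino acid shortage, which ATF4 drives and which overlaps with the response to other stresses, were read beside these carriers. Of 14 such genes, 9 were higher and 5 lower in CF control (median log2 ratio 0.32), where 48.2% of all genes were higher. In treated CF against treated WT, 12 were higher and 2 lower (median 0.87), where 50.3% of all genes were higher. There 5 were at least 2-fold higher, where 3.22% of all genes were. Asns, which makes asparagine, gave 1093, 1367, 3523 and 5388 and was higher in CF by 3.24-fold in the controls and 4.02-fold in the treated mice. Chac1, which degrades glutathione, gave 51.7, 187, 377 and 785, with CF control at least 3.04-fold above WT control. Both genes were lowest in WT control and highest in CF + lubiprostone, the order also of Slc7a5 and Slc7a1.

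Psat1, an enzyme of serine synthesis, gave 304, 289, 533 and 1061, and Atf4 itself 3180.1, 3289, 4343 and 6300.0. Psat1 was 3.83-fold and Atf4 1.98-fold higher in the treated CF than in the treated WT pool. Aldh18a1, an enzyme of proline synthesis, went the other way, at 3187, 2679.7, 2185 and 2101. Sesn2 passed 2-fold in all 4 comparisons, lower in CF control, but with signals of 121, 53.4, 53.1 and 129.6 near or below the medians it was at least 1.16-fold lower there.

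**Figure D2:**
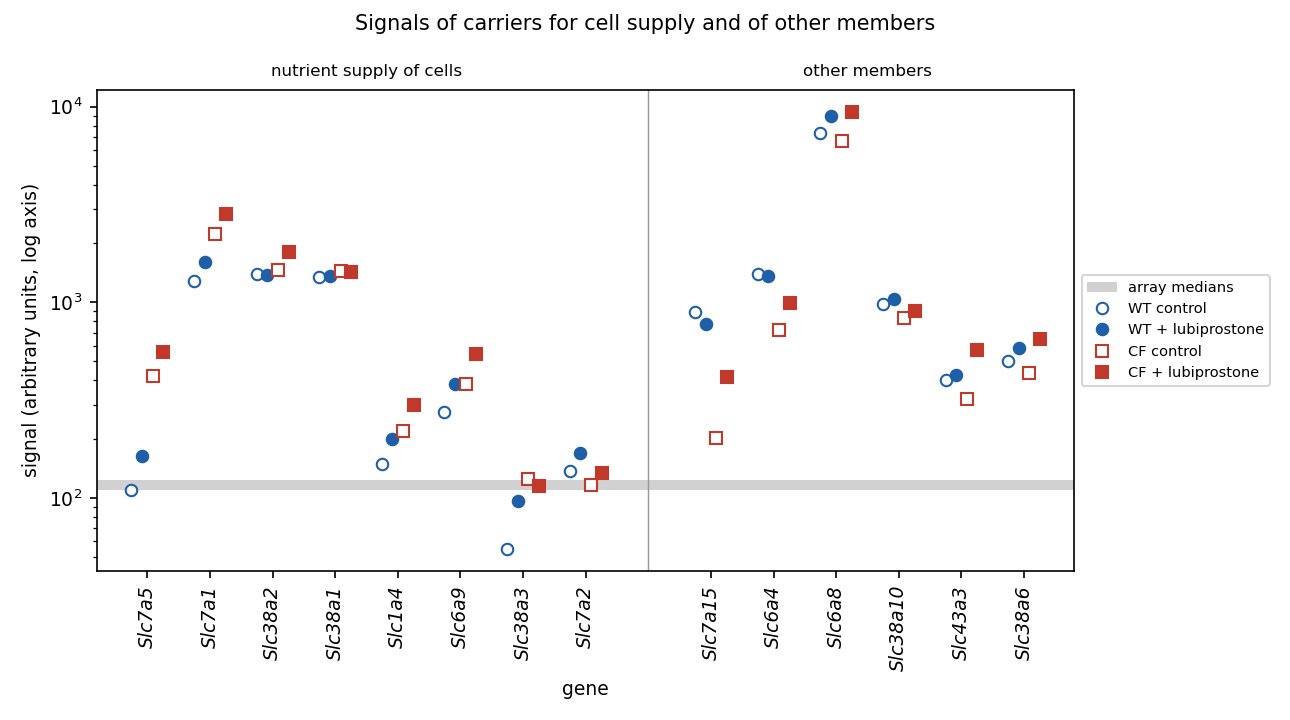
Signal (arbitrary units, log axis) of the carriers that supply cells and of further members in the 4 pools, 1 array each, with the grey band at the array medians. Slc7a5 stands at 421 and 559.5 in the CF pools against 109.5 and 164 in the WT pools, and Slc7a15 at 203 and 417 in the CF pools against 897 and 772.

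Further members were read one by one. Slc7a15, a carrier with a preference for aromatic amino acids, gave 897, 772, 203 and 417 on 1 probe set. CF control was 4.43-fold below WT control and the treated CF pool 1.85-fold below the treated WT pool, so both CF pools were below both WT pools. Slc6a4, the serotonin carrier, which enterocytes use to clear serotonin, gave 1390.1, 1356, 723 and 992 and was lower in CF by 1.92-fold in the controls and 1.37-fold in the treated mice. Its 4 pools stood in the same order as those of Slc7a15, with WT control highest and CF control lowest. Slc6a8, the creatine carrier, gave 7346, 8948, 6640.1 and 9397, and its 2 probe sets had opposite signs between the control pools.

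Members of the lysosome and endosome were dim. Slc15a3 and Slc15a4, which export peptides and histidine from the lysosome, and Slc36a4, Slc38a7 and Slc38a9 had signals between 130.0 and 338, and 2 were higher and 3 lower in CF control. Slc38a9, which reports lysosomal arginine to growth signalling, was lowest in CF control, at 208, 172, 130.0 and 213 over 4 kept probe sets, at least 1.52-fold below WT control and at least 1.56-fold below CF + lubiprostone. The other 4 differed by 1.45-fold or less in each comparison, the largest of these being Slc15a3, higher with lubiprostone in CF mice. Slc6a2, the noradrenaline carrier, passed 2-fold in the treated pools from signals of 107, 60.4, 113 and 160.1, and was at least 1.31-fold higher in CF there. Slc6a7, a neuronal proline carrier, was also dim, at 135, 196, 144 and 104.

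The genotype difference could be read again in the treated pools, on 2 arrays of their own. In CF + lubiprostone against WT + lubiprostone, 39 members were counted, 22 higher and 17 lower in CF, with a median log2 ratio of 0.06 against 0.00 over 11792 genes. At least 2-fold lower were Slc6a20a, Slc43a2 and Slc7a8, 3 members against a background of 3.41%, and at least 3-fold lower 1, Slc6a20a, against 1.25%. At least 2-fold higher were Slc7a5, Slc6a14 and the dim Slc6a2, 3 members against 3.22%, and at least 3-fold higher were the first 2 of these, against 1.27%, of which Slc6a14 comes to at least 2.995-fold, inside that limit, when signals below the median are set to it. Slc6a2, below the median in WT + lubiprostone, was counted through the CF + lubiprostone array alone and comes to at least 1.31-fold. Slc6a20a, Slc43a2, Slc7a5 and Slc6a14 were thus past 2-fold in the same direction in both genotype comparisons. These counts are small, and with so few members the shares are given beside the background without a test.

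Over the 38 members counted in both genotype comparisons, the log2 ratios had a Pearson r of 0.82 and a Spearman rho of 0.67, and 27 (71.1%) had the same sign, 13 higher and 14 lower in both. Over all 11339 genes counted in both, r was 0.54, rho 0.40 and 63.4% had the same sign. The points of each comparison share their 2 arrays and genes are not independent replicates, so these values describe the arrays only. Among the 26 members that reached the 75th percentile, r was 0.90, rho was 0.80 and 19 had the same sign. The same values over all genes that reached it are not given here, so these have no background of like brightness.

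**Figure D3:**
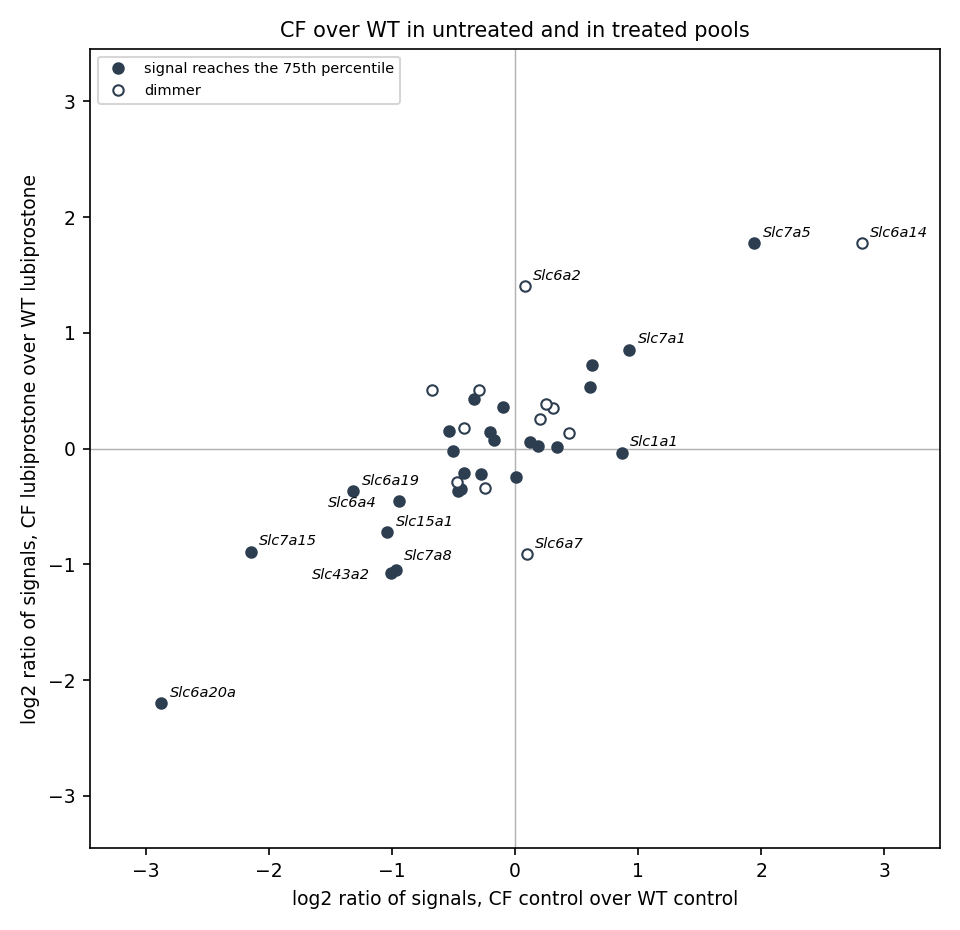
Log2 ratio of signals of CF control over WT control (x axis) and of CF + lubiprostone over WT + lubiprostone (y axis), 1 point for each of the 38 members counted in both, filled where a probe set reaches the 75th percentile. Slc6a20a lies at the lower left (-2.87 and -2.20), Slc7a5 at the upper right (1.94 and 1.77), and Slc1a1 near 0 on the y axis only.

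Fewer members passed 2-fold with lubiprostone than with genotype. In WT + lubiprostone against WT control, 22 of 37 members were higher and 15 lower, with a median log2 ratio of 0.08 against -0.00 over 11691 genes. No member was at least 2-fold higher or lower, where 1.35% and 1.42% of all genes were, and none at least 3-fold higher or lower, where 0.488% and 0.573% were. The highest ratio was that of the dim Slc6a14 (log2 ratio 0.91), but both its mean WT signals lay below the array medians, and with signals below the median set to it the WT pools were nearly equal (log2 ratio -0.01), so that no fold is given. Among the bright members, Slc6a9 was at least 1.51-fold, Slc7a1 1.33-fold and Slc36a1 1.33-fold higher.

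In CF + lubiprostone against CF control, 26 of 40 members were higher and 14 lower, with a median log2 ratio of 0.26 against 0.01 over 11795 genes. At least 2-fold higher were 2 members, Slc6a19 and Slc7a15, against a background of 3.2%, and no member was at least 2-fold lower, against 2.15%. None was at least 3-fold higher or lower, against 0.941% and 0.738%. Slc6a19 was 2.31-fold higher (log2 ratio 1.21 ± 0.19, SD, n = 2 probe sets), which set its treated CF signal of 7423 beside 7807 in WT control. Slc7a15 was 2.06-fold higher, and its treated CF signal of 417 was still below both WT pools. Slc7a15 lay inside 2-fold with each array scaled to the same median (log2 ratio 0.91), with quantile normalization (0.95) and with an offset of 50 (0.89), and Slc6a19 stayed past it in all 9 alternatives.

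Further bright members that were higher with lubiprostone in CF mice were Slc6a6 (1.87-fold), Slc43a3, a purine nucleobase carrier (1.78-fold, from signals of 402, 424, 319 and 569), Slc36a1 (1.53-fold) and Slc6a20a (1.52-fold). The treated signal of Slc6a20a was nevertheless far below the WT pools. Slc1a1 had the lowest ratio of the 40 members counted, 1.62-fold lower (log2 ratio -0.69 ± 0.52, SD, n = 3 probe sets). Slc15a1, Slc43a2, Slc7a8, Slc7a7 and Slc3a1 differed by 1.14-fold or less in either direction, so these carriers, lower in CF without treatment, had similar signals with it. Slc38a10 had 7 probe sets, and 1 of them, with signals of 33.2, 208, 24.7 and 147.6, carried most of its ratio with lubiprostone in either genotype.

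The CF control array enters both the genotype and the lubiprostone comparison in CF mice, so a value high or low on that array alone moves both, in opposite directions, and this cannot be told apart from an effect of treatment for Slc6a19, Slc7a15 or Slc1a1. The 2 lubiprostone comparisons share no array. Over 37 members counted in both, r was 0.02, rho 0.11 and 21 (56.8%) had the same sign, and over all 11227 genes r was 0.19, rho 0.19 and 57.5% had the same sign. Among members that reached the 75th percentile, 14 were higher and 3 lower in both genotypes, of 26, with r of 0.17 and rho of 0.28. Of all 11227 genes, dim ones included, 3271 were higher and 3179 lower in both, and no counts over bright genes alone are given here. Markers of the exocrine pancreas were at least 2-fold lower with lubiprostone in both genotypes for all 8 listed genes above the filter, with summed signals of 30265, 2963, 31910.3 and 7611, and all 8 were above the median on each array. Their part in the carriers' values was not tested.

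**Figure D4:**
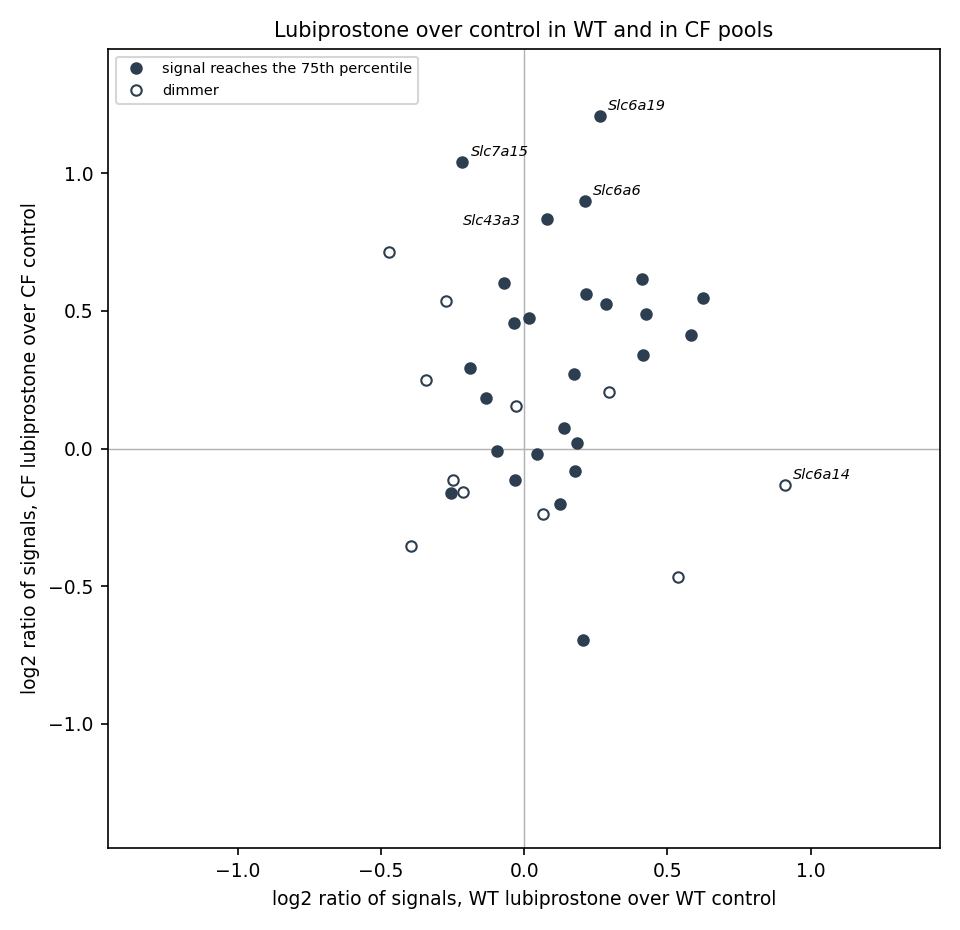
Log2 ratio of signals of WT + lubiprostone over WT control (x axis) and of CF + lubiprostone over CF control (y axis), 1 point for each of the 37 members counted in both, filled where a probe set reaches the 75th percentile. Slc6a19 (0.26 and 1.21) and Slc7a15 (-0.22 and 1.04) are past 1 on the y axis, no member is past 1 on the x axis, and the unlabelled filled point lowest on the y axis is Slc1a1 (-0.69).

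Most of the peptidases that supply these carriers were lower in CF as well. The list used held 13 genes of the brush border, among them trehalase (Treh), which cuts a sugar and not a peptide, and 11 were above the filter. Between the control pools 10 of the 11 were lower in CF, with a median log2 ratio of -1.55. Of these, 7 were at least 2-fold lower, where 4.84% of all genes were. In the treated pools all 11 were lower in CF, with a median of -1.04. There 6 were at least 2-fold lower, where 3.41% of all genes were. These counts and medians include Treh. Xpnpep2, an aminopeptidase that removes residues before proline, gave 1439, 1179, 319 and 256, 4.50-fold lower in CF control. Mme, neprilysin, gave 9430.4, 8849, 2559.8 and 1959 and was 4.15-fold lower, and both CF pools of each gene lay far below both WT pools.

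Naaladl1, a peptidase of the ileum, gave 14577, 11377, 4382 and 3430.3 and Mep1a, the meprin alpha subunit, 5434, 4468, 1592 and 1319.8. They were 3.33 and 3.42-fold lower in CF control. Other bright peptidases differed less: Mep1b, the meprin beta subunit, gave 19939, 22517, 18816 and 19380.4, Enpep, aminopeptidase A, 28067, 31143, 19541 and 25569 and Anpep, aminopeptidase N, 19022, 21129, 10993 and 13650.4. Tmprss15, the enteropeptidase that activates trypsinogen, gave 380.4, 602, 381 and 525 and had a ratio of 1.002 in the controls. In WT mice with lubiprostone 6 of the 11 were higher and 5 lower, and in CF mice 7 were higher and 4 lower, none of them 2-fold.

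Partners of the carriers were mostly lower in CF too. Of 8 above the filter, 7 were lower in CF between the control pools and 1 was higher, where 48.2% of all genes were higher. Pdzk1, a scaffold that holds apical carriers at the membrane, gave 6128, 5822, 819 and 831 and was lower in CF by 7.48-fold in the controls and 7.01-fold in the treated mice. Slc16a10, the basolateral carrier of aromatic amino acids, gave 1288, 1071, 369 and 560.0 and was at least 2.504-fold lower in CF control. Slc25a13, the mitochondrial aspartate and glutamate exchanger, gave 526, 449, 229 and 312 and was 2.30-fold lower.

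Slc9a3, the sodium and proton exchanger that maintains the proton gradient for Slc15a1 and Slc36a1, stood apart with 3672, 3586, 9237 and 8049. It was higher in CF by 2.52-fold in the controls and 2.24-fold in the treated mice, while Slc15a1 was lower in both. Cltrn, a partner of Slc6a19 in the kidney, was below the filter on every array.

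**Figure D5:**
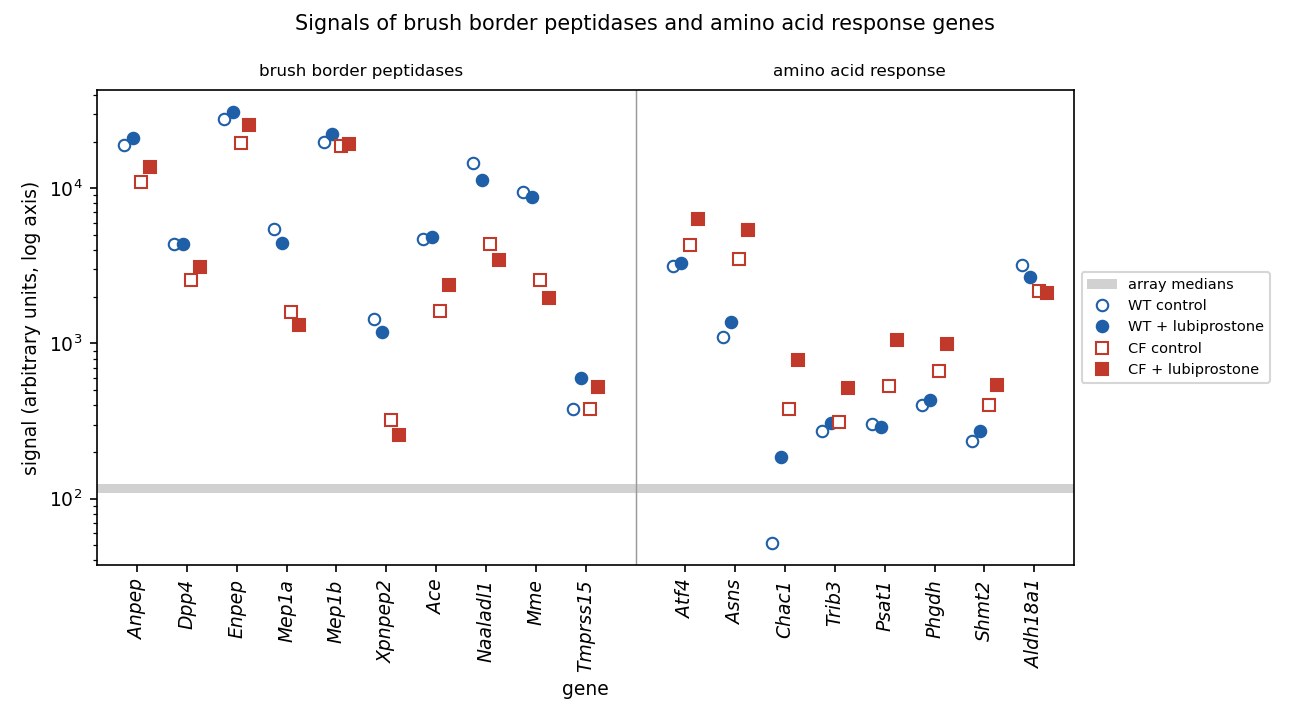
Signal (arbitrary units, log axis) in the 4 pools, 1 array each, of the 10 brush border peptidases above the filter and of 8 of the 14 genes of the amino acid response, with the grey band at the array medians. Xpnpep2 stands at 1439 and 1179 in the WT pools against 319.5 and 256 in the CF pools, and Asns stands at 1093 and 1367 in the WT pools against 3523 and 5388 in the CF pools.

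Promoter sequence was set beside these values for carriers whose genes were lower or higher in CF. RefSeq promoters were given for 47 of the 65 member genes (68 starts, GRCm38.p6), and for Slc7a5 and 17 other members none was used. Both strands of the 250 bases before each start were searched for TGATGNAA, the core of the element bound by ATF4 with C/EBP factors, TGACNNNGC, the core of the antioxidant response element, GTTAATNAT, of the enterocyte factor HNF1, CAAAGTCCA, of HNF4, and TATAAA, the TATA box core, which was added later than the other 4. TGATGNAA stood in 4 of the 68 member promoters (5.88%, against 3.45% of all 32851 promoters), TGACNNNGC in 9 (13.2% against 10.2%), GTTAATNAT in 0 (against 0.737%), CAAAGTCCA in 1 (1.47% against 0.384%) and TATAAA in 6 (8.82% against 12.4%). These shares are counts of letters in a short window and say nothing of binding.

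Carriers chosen first, Slc6a20a, Slc6a19, Slc15a1, Slc6a14 and Slc1a4, held no match. The upstream bases are shown for 5 carriers, first for Slc6a20a and Slc6a19, the apical carriers with the lowest ratios in CF control, and then for Slc3a1, Slc7a7 and Slc7a1, which were picked because a match had been seen in them. Each runs from 250 bases before the start to the base before it, and capitals mark the matches. Slc6a20a is chr9:123678833-123679082 on the minus strand, Slc6a19 is chr13:73692637-73692886 on the minus strand, Slc3a1 is chr17:85028097-85028346 on the plus strand, the first of 5 starts of Slc7a7 is chr14:54417945-54418194 on the minus strand and the first of 2 starts of Slc7a1 is chr5:148399905-148400154 on the minus strand.
Slc6a20a: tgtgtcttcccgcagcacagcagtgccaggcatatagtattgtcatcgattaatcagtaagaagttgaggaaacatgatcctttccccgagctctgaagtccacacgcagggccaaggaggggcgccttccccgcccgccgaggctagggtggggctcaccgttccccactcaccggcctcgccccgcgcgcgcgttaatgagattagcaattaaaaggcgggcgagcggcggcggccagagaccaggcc
Slc6a19: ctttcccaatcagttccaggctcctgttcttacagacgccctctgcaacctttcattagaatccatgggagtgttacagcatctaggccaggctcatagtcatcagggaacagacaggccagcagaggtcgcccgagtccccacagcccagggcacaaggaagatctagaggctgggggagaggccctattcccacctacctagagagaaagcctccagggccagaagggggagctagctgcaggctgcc
Slc3a1: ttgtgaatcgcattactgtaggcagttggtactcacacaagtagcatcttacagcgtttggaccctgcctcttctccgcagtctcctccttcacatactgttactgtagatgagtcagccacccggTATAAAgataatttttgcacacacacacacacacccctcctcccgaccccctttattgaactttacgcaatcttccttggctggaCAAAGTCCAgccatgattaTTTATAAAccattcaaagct
Slc7a7: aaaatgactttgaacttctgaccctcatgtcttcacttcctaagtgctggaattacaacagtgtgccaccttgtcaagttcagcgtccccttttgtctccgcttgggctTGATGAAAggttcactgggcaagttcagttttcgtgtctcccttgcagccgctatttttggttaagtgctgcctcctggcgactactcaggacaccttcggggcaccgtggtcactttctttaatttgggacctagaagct
Slc7a1: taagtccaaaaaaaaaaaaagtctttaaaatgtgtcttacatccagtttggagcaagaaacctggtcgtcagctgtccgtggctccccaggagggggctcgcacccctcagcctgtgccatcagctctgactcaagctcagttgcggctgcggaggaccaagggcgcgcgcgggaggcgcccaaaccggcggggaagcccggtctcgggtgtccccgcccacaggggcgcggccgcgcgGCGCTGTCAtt

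In Slc3a1, which encodes the heavy chain of the cystine carrier, CAAAGTCCA stood 39 to 31 bases before the start, TATAAA 124 to 119 bases before it, and near the start 2 overlapping matches of TATAAA, on opposite strands, 20 to 13 bases before it. Slc7a7 held TGATGNAA 141 to 134 bases before its first start, and Slc7a1 TGACNNNGC on the minus strand 11 to 3 bases before its first start. Slc7a7 was lower and Slc7a1 higher in CF control, and Slc6a20a, with no match, had the lowest ratio.

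The remaining 25 members were not measured above the filter. Their 41 probe sets had signals of at most 122.8, with a median of 30.0. They were Slc1a2, Slc1a3, Slc1a6 and Slc1a7, glutamate carriers of the nervous system and retina, the GABA, betaine, glycine and dopamine carriers Slc6a11, Slc6a12, Slc6a13, Slc6a5 and Slc6a3, and Slc6a15, Slc6a16, Slc6a18, Slc6a20b, Slc6a21, Slc7a3, Slc7a10, Slc7a11, Slc7a12, Slc7a13, Slc7a14, Slc15a5, Slc36a2, Slc38a4, Slc38a5 and Slc43a1. The dim kept members without a value above were Slc15a2, Slc36a3 and Slc6a17, and the bright ones Slc38a6 and Slc7a4, none of which passed 2-fold in a comparison in which it was counted.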

How the data were processed

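RNA of the entire small intestine of the mice of each group was pooled and hybridized to Affymetrix Mouse430 2.0 arrays, 1 for each group. The deposited values are intensities on a linear scale, which the authors extracted with GCOS (MAS5) and scaled; the mean without the highest and lowest 2% was 500.003 on each array. No detection calls were used, and 1 array limits the precision.

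Of 45101 probe sets, 34958 had 1 gene symbol, 932 several and 9211 none in the annotation used, and 34754 were matched to RefSeq by gene identifier. Members were taken by symbol. Left out were 3 opposite-strand genes and 1 probe set shared by Slc1a2 and another gene, whose highest signal was 25.5. A probe set was kept at or above its array's median on at least 1 array, and a gene was counted in a comparison where one of these was at or above the median on either array. Log2 ratios of probe sets were averaged. Genes were called at 3-fold, the threshold of the methods, and at 2-fold. No test was made.

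The members, gene lists and motifs were chosen with earlier results of these data known. Named with 4 signals were members at or above the 75th percentile that belong to the lists of apical, basolateral, heavy chain or supply carriers or passed 2-fold, dimmer ones past 2-fold, and of other lists the brightest genes and those past 2-fold. Slc6a4, Slc6a7, Slc6a8, Slc7a2, Slc7a6, Slc38a9, Slc38a10 and Slc43a3, and Atf4, Psat1, Aldh18a1, Tmprss15, Anpep, Enpep, Mep1b and Cltrn among other genes, were named after their values were seen where that rule does not take them. Upstream sequences came from RefSeq (GRCm38.p6). The window of 250 bases before the start was set after one with the first 50 bases of the transcript had been searched.

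As alternatives, the filter was dropped or raised to the 75th percentile and the arrays were scaled to equal medians or quantile normalized. Others were signals below the median set to it, an offset of 50, the brightest probe set, linear averaging and leaving out probe sets shared between transcripts. The steps were tested on simulated data. Python 3.11.15, numpy 2.4.6, pandas 2.3.3, scipy 1.17.1 and matplotlib 3.10.9 were used.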

Additional observations from a re-analysis of the deposited data

How the results depend on the processing

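The limits are set by 1 array for each group and by signals near the array medians, and no fold here can be set against the spread between mice. The median log2 ratio of the members moved by less than the median SD between probe sets of a gene in all 4 comparisons and all 9 alternatives. Over all genes that SD was 0.24, 0.20, 0.26 and 0.23, about as large as the members' medians or larger. A median could thus move to about 0 and still stay within it, so this does not show that the medians are stable. The sign of the members' median turned in 2 of these 36 values. Both were for CF + lubiprostone over WT + lubiprostone, without a filter (-0.03) and with a filter at the 75th percentile (-0.11). Scaling each array to the same median moved the median of all genes from -0.02 to 0.16 in CF control over WT control and from 0.01 to -0.12 in CF + lubiprostone over CF control, and that of the members from -0.20 to -0.02 and from 0.26 to 0.13. This scaling multiplies each array by 1 number and shifts all ratios of a comparison alike. The distance of the members from all genes therefore could not change under it. No paired analysis was possible because each group is 1 array of a pool.

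Counts past a fold moved most without the filter, which admits the 25 dim members, so that all 65 were counted in each comparison. The shares of all genes past the same folds under the alternatives are not given here. The counts below therefore show the effect of the processing and are not results about the carriers. In CF control over WT control, 7 were then past 3-fold and lower, 7 past 2-fold and higher and 16 past 2-fold and lower. In WT mice with lubiprostone, 5 were past 3-fold and higher, 2 past 3-fold and lower, 7 past 2-fold and higher and 3 past 2-fold and lower, and in CF mice the counts were 7, 1, 14 and 2. In the treated genotype comparison 4 were past 3-fold and higher, 4 past 3-fold and lower, 6 past 2-fold and higher and 6 past 2-fold and lower. With the filter at the 75th percentile, 0 of 23 members were past 3-fold and higher and 0 past 2-fold and higher in CF control over WT control. In the treated pools these counts were 1 and 1 of 26. An offset of 50 left 1 member past 3-fold and higher in CF in the controls, 0 in the treated pools, and 1 past 2-fold and higher with lubiprostone in CF mice. Scaling to the same median gave 5 members past 2-fold and higher and 3 lower in CF in the controls, and 1 past 2-fold and higher with lubiprostone in CF mice, as quantile normalization did (1). Signals below the median set to it left 1 member past 3-fold and higher in treated CF. The other 117 of 144 counts stayed within 1.5 times the value given.

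Of 816 log2 ratios of 23 single genes, 764 moved by less than the spread between probe sets and 52 by more. For a gene with 1 bright probe set, such as Slc15a1, several alternatives cannot change the value, so part of the 764 was fixed in advance. Of the 816, 27 changed sign, none of them in a comparison where the gene was past 2-fold. Of these 27, the ones that moved by more than the spread were Slc7a1 without the filter (from 0.93 to -0.52 in CF control over WT control and from 0.42 to -0.09 in WT mice with lubiprostone), the dim Slc38a3 in the treated pools without the filter (from 0.25 to -0.76) and with signals below the median set to it (-0.04), Slc1a1 in the treated pools with its brightest probe set (from -0.04 to 0.30), and in WT mice with lubiprostone the dim Slc6a2 without the filter (from -0.82 to 0.01) and the dim Slc6a14 and Slc38a3 with signals below the median set to it (from 0.91 to -0.01 and from 0.81 to -0.02). Of members past 2-fold with lubiprostone in CF mice, the call lost under equal medians, quantile normalization and the offset was that of Slc7a15. The cause was not tested.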

Other observations

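Markers of other cell types gave the following values in the same 4 arrays (untreated WT, treated WT, untreated CF and treated CF), as summed signals of the listed genes above the filter. The 7 enteroendocrine markers gave 13081, 12935, 8755 and 9543 and all 7 were lower in CF in both genotype comparisons. The 6 smooth muscle markers gave 17436, 19758, 27543 and 18217, all 6 higher in CF between the control pools and all 6 lower with lubiprostone in CF mice. The 7 T cell markers gave 10363, 9284, 6086 and 8267, all 7 lower in CF in both genotype comparisons.

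The 5 mast cell markers gave 849.6, 594, 10208 and 1038, so that their sum in CF control stood far above the other pools. Between the control pools 4 were higher and 1 lower in CF. In WT control 3 and in WT + lubiprostone 2 of the 5 were at or above the array's median. The 5 plasma cell markers gave 29738, 30868, 36638 and 43924, all 5 higher in CF between the control pools. Goblet cell markers gave 108490.0, 116213, 125401 and 115648, Paneth cell markers 75567, 83502, 90841 and 84074 and crypt proliferation markers 30586, 28888, 32133 and 21374, the last of these lowest in CF + lubiprostone. Of the 4 Paneth cell markers, 2 were higher and 2 lower in CF between the control pools. The 2 adipocyte markers above the filter gave 392.2, 74.0, 299 and 67.7 and were low in both treated pools.

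Values were also read for dimmer lists. Tuft cell markers gave 686, 659, 899 and 607, enteric neuron markers 2043, 2539.6, 2412 and 3377, enteric glia markers 244, 247, 192 and 230.1, liver markers 626, 753, 399.8 and 425 and stomach markers 2590.0, 4206, 3811 and 2821. Of 4 enteric neuron markers counted, 3 were lower and 1 higher in CF in both genotype comparisons, although the summed signals were higher in CF. Of 2 liver markers, 1 was higher and 1 lower in CF control. The part of any of these cells in the values of the carriers was not tested.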
